A study of Mus musculus with 94 samples.

Results

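The genes described here are 45 genes of the DNA replication machinery, out of 46078 mouse genes counted in single basophils from bone marrow. They were chosen as a list by function, with earlier results of these data known. The list covers origin licensing, the replicative helicase, the DNA polymerases, the sliding clamp and the factors around them. All 45 were found in the counts by symbol. The cells came from female C57BL/6 mice, and the design names 3 of them. Basophils are granulocytes that bind IgE through the receptor FcεRI. Every cell was live, lineage-negative, Sca1- and FcεRI+, and 47 cells were sorted as CD34+ and 47 as CD34-, with no other treatment or genotype in the labels. CD34 is a glycoprotein on the surface of hematopoietic stem and progenitor cells. The contrast in the design is CD34+ against CD34- basophils.

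Before a cell divides it copies its genome once. The origin recognition complex marks the start sites, CDC6 and CDT1 load the MCM helicase there, and CDC45 and the GINS complex turn the loaded helicase on when S phase begins. DNA polymerase alpha with its primase then starts each strand, polymerases epsilon and delta extend it, and PCNA, the ring that holds polymerases on DNA, is opened by the RFC clamp loader. Many of these genes are transcribed in late G1 and S phase under E2F factors and are low in cells that have left the cell cycle, as mature granulocytes have.

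Cells were not assigned to mice in the labels, so each gate counts as 1 sample and no test was run. Differences are given as sizes. Intervals of levels and ratios cover the counting error of reads, and those of shares of cells cover the counting of cells, so none covers the spread between mice or sorts. Cell 20 of the CD34- gate, with 24565 gene reads, and cell 3 of the CD34+ gate, with 31504, were left out as too shallow, which leaves 46 cells per gate. The kept CD34- cells had 262944 to 938322 gene reads (median 737059) and the kept CD34+ cells 374011 to 1154738 (median 633178). Gene reads per read of the ERCC spike-in, a fixed amount of added RNA, had a median of 6.87 in CD34- and 14.4 in CD34+ cells. The 11 basophil markers all had reads in both gates and summed to 240 to 141069 counts per 1e6 gene reads (CPM) per CD34- cell and to 5255 to 175178 CPM per CD34+ cell. Over the gates this sum was 48704 CPM in CD34- and 98962 CPM in CD34+ cells, led by Prss34, a basophil protease gene, at 24143 and 62565 CPM. The single markers went both ways. As log2 ratios of CPM plus 1, CD34+ over CD34-, Prss34, Mcpt8 and Cpa3 had 1.37, 1.40 and 1.33. Ms4a2 and Fcer1a had 0.43 and 0.08. Gata2, Hdc, Il4, Cd200r3, Ccl3 and Ccl4 were lower, at -0.59, -1.12, -1.31, -1.47, -2.57 and -3.38. The 6 progenitor markers summed to 479.7 CPM over all CD34- cells and 7235 CPM over all CD34+ cells. The per-cell range of that progenitor sum was 0 to 4327 CPM in CD34- and 136.9 to 22238 CPM in CD34+ cells. Lists of other lineages rested on single genes: mast cell genes came to 710.2 and 809 CPM in the CD34- and CD34+ gates (nearly all Cd63), the megakaryocyte list to 1444 and 932 CPM (Itga2b) and the monocyte and dendritic cell list to 507 and 43.7 CPM (Ccr2). The eosinophil list summed to 174.5 and 114 CPM, the B cell list to 63.7 and 53.1 CPM, the neutrophil list to 19.7 and 71.2 CPM, the erythroid list to 0.837 and 36.6 CPM and the T and NK cell list to 1.02 and 0.133 CPM. Mrgprb2, Pf4, Ppbp, Ear1, Ltf, Camp, Hba-a1 and Hba-a2 had no reads in either gate. The parts of RNA content, of basophil and progenitor markers and of mouse in the differences below were not tested or, for mouse, cannot be told apart from the gate.

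Replication genes stood higher in the CD34+ gate as a group. Reads were summed over the cells of a gate, expressed as CPM, and compared as the log2 ratio of CPM plus 1, CD34+ over CD34-, which understates differences of low genes. Of the 45 members, 38 were at least 2-fold higher in the CD34+ gate by this measure, whereas 21.7% of the 12460 genes read in 10 or more kept cells were. None of the 45 was at least 2-fold lower, against 10.1% of all those genes. The member median was 1.99, with a range of -0.42 to 4.75, and the median of all genes was 0.19. A 4-fold difference was reached by 22 members and by 7.8% of all genes. The log2 ratio was above 0 for 44 members and for 58.9% of all genes, and Rfc2 was the exception. Together the members took 1628 CPM in CD34- and 4315 CPM in CD34+ cells, which is 2.65-fold higher. No filter on low values was applied to the members, 43 of which were read in 10 or more kept cells, the others being Orc1 and Fen1. A sum over a gate does not separate fewer cells with a transcript from less transcript per cell, so the values in single cells are given throughout. Single cells weighed on many of these values. Leaving out each cell in turn moved the ratio of 23 members by over 1.5-fold, and 35 members were at least 2-fold higher in the CD34+ gate without any 1 cell. Cdc45 and Gins4 fell short of 2-fold, both at a log2 ratio of 0.85, without CD34+ cells 28 and 25, and Fen1 at 0.79 without CD34+ cell 28. With reads scaled to the spike-in instead of to all gene reads, 44 members were at least 2-fold higher, but so were 51.8% of all genes, whose median moved to 1.04.

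**Figure D1:**
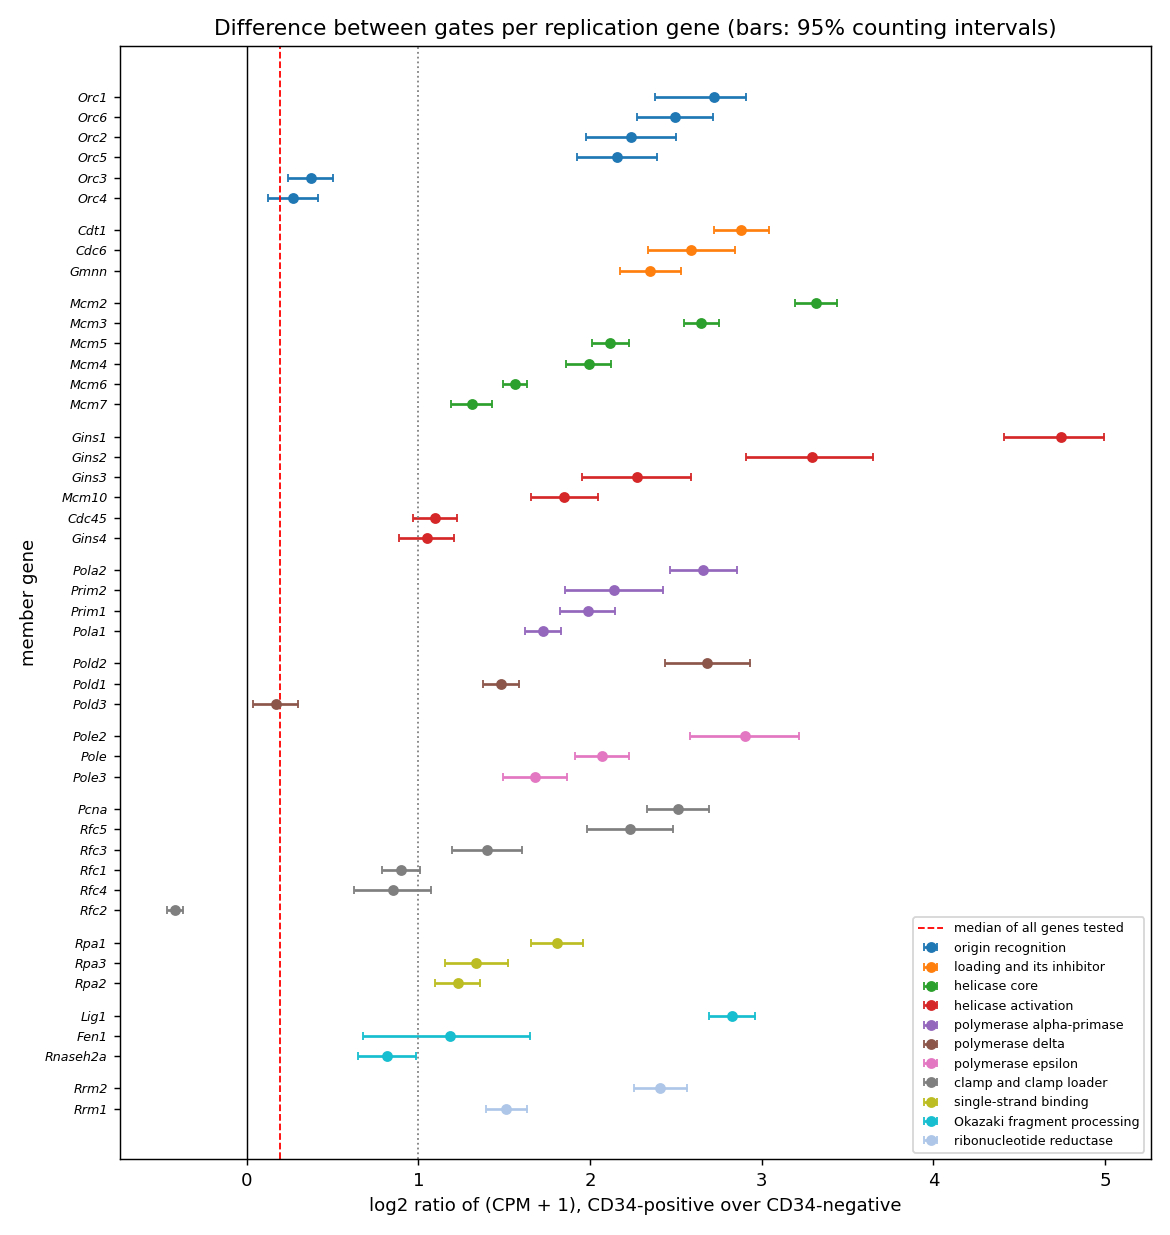
Log2 ratio of CPM plus 1, CD34+ over CD34-, for each of the 45 replication genes, grouped by subcomplex. Points are the ratios of summed reads over 46 cells per gate, bars are 95% counting intervals, the dashed line is the median of all genes (0.19) and the dotted line marks 2-fold. Gins1 lies farthest to the right at 4.75, and Rfc2, at -0.42 here and 0.55 with spike-in scaling, is the only gene left of 0.

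The promoters of the members were searched for letters that E2F factors are known to bind. RefSeq promoter windows (build GRCm38.p6, 250 bases before to 50 after a start) were on hand for 37 members. The forms TTTCCCGC, TTTGGCGC, TTTCGCGC and TTTGCCGC were searched on both strands, and matches of different forms may overlap. At least 1 match stood in a window of 15 of the 37 members, or 40.5%, against 704 of 27025 genes in the table, or 2.61%. Among 8151 genes that were also read in 10 or more kept cells, 409 had a match, or 5.02%. The pentamer CCAAT, the core of the NF-Y motif, was found on either strand in 24 of 37 members, or 64.9%, and in 41.1% of all genes. Members with an E2F-type match included some with large log2 ratios, such as Pole2 at 2.90 and Orc1 at 2.72, and some with small ones, such as Orc3 at 0.37. A match describes the letters only, and its relation to the difference between gates was not tested. For 5 members, picked after the matches were seen from those whose stretch holds no annotated exon, the 160 bases before the RefSeq start are shown 5′ to 3′ on the gene's strand, with matches in capitals. Mcm5 and Mcm6 each hold a pair of overlapping matches, Cdc6 and Pola1 hold 1 match each, and Mcm2, with the largest log2 ratio of the MCM2 to MCM7 ring, holds none.
Mcm6, chr1:128359706-128359865, minus strand: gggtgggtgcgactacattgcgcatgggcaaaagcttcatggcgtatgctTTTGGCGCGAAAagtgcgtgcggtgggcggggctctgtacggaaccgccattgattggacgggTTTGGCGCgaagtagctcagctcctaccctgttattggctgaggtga
Mcm5, chr8:75109349-75109508, plus strand: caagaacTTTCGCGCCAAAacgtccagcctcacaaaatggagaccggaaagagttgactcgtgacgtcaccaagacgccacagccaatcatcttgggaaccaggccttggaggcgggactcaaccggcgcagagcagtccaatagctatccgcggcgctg
Cdc6, chr11:98907991-98908150, plus strand: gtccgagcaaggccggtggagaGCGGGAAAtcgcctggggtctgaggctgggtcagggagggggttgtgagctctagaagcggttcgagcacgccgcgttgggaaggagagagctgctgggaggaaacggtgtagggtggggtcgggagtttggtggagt
Pola1, chrX:93632156-93632315, minus strand: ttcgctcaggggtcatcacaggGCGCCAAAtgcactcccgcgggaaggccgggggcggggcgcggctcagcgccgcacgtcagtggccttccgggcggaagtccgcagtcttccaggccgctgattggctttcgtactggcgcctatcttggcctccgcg
Mcm2, chr6:88898781-88898940, minus strand: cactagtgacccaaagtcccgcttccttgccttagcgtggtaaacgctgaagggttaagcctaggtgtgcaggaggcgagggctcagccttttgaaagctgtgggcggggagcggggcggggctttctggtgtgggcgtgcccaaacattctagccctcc

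In Mcm6 the matches begin at -110, -106 and -47, counting the RefSeq start as 0. In Mcm5 they begin at -153 and -149, and in both Cdc6 and Pola1 at -138. Gene positions elsewhere are those of GENCODE, whose starts can differ. GENCODE starts Cdc6 upstream, at chr11 position 98907801, so the Cdc6 stretch lies inside that gene span, in an intron. The stretches of Mcm2 and Pola1 end at the GENCODE start, and those of Mcm5 and Mcm6 lie farther upstream of it.

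The origin recognition complex, encoded by Orc1 to Orc6, splits by size of difference. Orc1, the subunit whose level is known to vary with the cell cycle, had 0 reads in CD34- cells and 168 reads (5.59 CPM) in the CD34+ gate. Against a floor of 3 reads over the CD34- gate, the ratio of Orc1 was 62.4-fold. This is not a lower bound, since the reads of 1 cell can pass that floor. The 168 reads came from 9 CD34+ cells, with 48.8% from CD34+ cell 10. The log2 ratio of Orc1 was 2.72 with that cell and 1.98 without it. Orc6 (8.61 to 53.2 CPM), Orc2 (5.98 to 31.97 CPM) and Orc5 (8.34 to 40.7 CPM) had log2 ratios of 2.50, 2.24 and 2.16. Orc6 had 4.17 without CD34- cells 25 and 36, which held 77.8% of its CD34- reads. The level of Orc2 is uncertain, since 29.8% of its exon bases lie opposite Nif3l1. Orc3 and Orc4 behaved otherwise. Orc3 ranged from 0 to 579.9 CPM over CD34- cells with a median of 1.82 CPM, and from 0 to 267.5 CPM over CD34+ cells with a median of 48.2 CPM. The ranges overlap, and the highest CD34- cell exceeds all CD34+ cells. Its gate sums were 49.8 and 64.7 CPM, a log2 ratio of 0.37 (counting interval 0.24 to 0.50). Orc4 stood at 40.8 and 49.4 CPM, with a log2 ratio of 0.27 (0.12 to 0.42). Reads of Orc3 and Orc4 were thus present in CD34- cells, whereas Orc1 was not detected there at this depth.

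The loading factors and their inhibitor were all higher in the CD34+ gate. CDC6 and CDT1 bring the MCM ring to the origin, and geminin, encoded by Gmnn, binds CDT1 and blocks reloading after S phase has begun. All 3 genes were over 4-fold higher in the CD34+ gate, and their sum, 37.4 CPM in CD34- cells, was 6.68-fold higher in CD34+ cells. Cdt1 ranged from 0 to 157.9 CPM over CD34- cells with a median of 0 CPM, and from 0 to 514.9 CPM over CD34+ cells with a median of 79.3 CPM. Most CD34- cells lacked it, although the highest of them exceeded the CD34+ median. Its gate levels were 16.9 and 130.6 CPM, a log2 ratio of 2.88 (2.72 to 3.04). Gmnn stood at 14.6 and 78.7 CPM, a log2 ratio of 2.35 (2.17 to 2.53), the smallest of the 3. Cdc6 stood at 5.92 and 40.7 CPM, a log2 ratio of 2.59, and 86.4% of its CD34- reads came from cell 36, without which the log2 ratio was 4.51.

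The helicase core took more reads than any other subcomplex in the CD34+ gate. MCM2 to MCM7 form the hexameric ring that unwinds DNA at the fork. All 6 genes were at least 2-fold higher in the CD34+ gate, from Mcm7 at 1.31 to Mcm2 at 3.31, and their sum was 324 CPM in CD34- and 1388 CPM in CD34+ cells. Mcm2 (ENSMUSG00000002870, chr6:88883474-88898780 on build GRCm38) ranged from 0 to 505.4 CPM over CD34- cells with a median of 0 CPM. Over CD34+ cells Mcm2 ranged from 0 to 988 CPM with a median of 113 CPM. Most CD34- cells had no Mcm2 read, and the highest of them lay inside the CD34+ range. The gate levels of Mcm2 were 26.9 and 276.2 CPM, a log2 ratio of 3.31 (3.19 to 3.44), and 4.14 without CD34- cell 32, which held 46.6% of the CD34- reads. Mcm6 (ENSMUSG00000026355, chr1:128331590-128359664) ranged from 0 to 867 CPM over CD34- cells with a median of 5.26 CPM, and from 0 to 1259 CPM over CD34+ cells with a median of 202 CPM. Unlike the other MCM genes, Mcm6 had reads in a majority of CD34- cells, though at a low median. Its gate levels were 131.1 and 389.7 CPM, a log2 ratio of 1.56 (1.496 to 1.63). Mcm7, at 45.96 and 115.5 CPM, had the smallest log2 ratio of the ring, 1.31 (1.19 to 1.43). Mcm3, Mcm5 and Mcm4 lay between, at 2.65, 2.12 and 1.99, and Mcm5 had 2.74 without CD34- cell 28. Per kilobase of exon, which allows levels of different genes to be compared, Mcm6 was the highest member in the CD34+ gate at 83.5 CPM per kb, followed by Mcm3 at 75.04 CPM per kb.

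**Figure D2:**
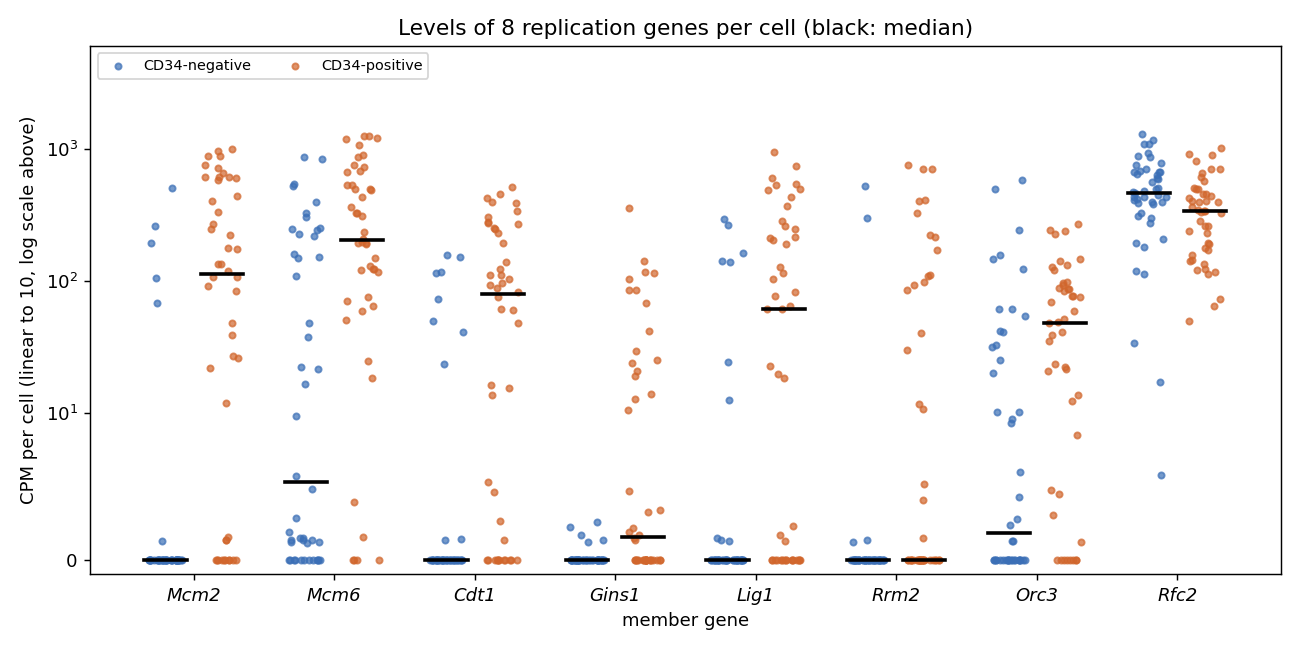
CPM per cell for 8 replication genes in 46 CD34- and 46 CD34+ cells (dots, 1 per cell; black bars, medians; the axis is linear to 10 CPM and logarithmic above). Mcm2 medians are 0 and 113 CPM, Rrm2 has only 2 CD34- cells above 10 CPM, and Rfc2 is present in every cell of both gates. Its CD34+ level is lower relative to gene reads but higher (log2 0.55) with spike-in scaling.

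Helicase activation showed the widest range of any group over all cells. CDC45 and the GINS tetramer join MCM2 to MCM7 to make the working helicase, and MCM10 helps to activate it. All 6 genes were at least 2-fold higher in the CD34+ gate, with log2 ratios from 1.05 for Gins4 to 4.75 for Gins1, and the group sum was 87.4 CPM in CD34- and 270.3 CPM in CD34+ cells. Gins1 (ENSMUSG00000027454, chr2:150905400-150931280) had 7 reads in the CD34- gate, where no cell exceeded 2.56 CPM. In CD34+ cells it had 944 reads, with a median of 1.56 CPM and a highest cell of 358 CPM. Both gates reach down to 0, and the CD34+ median lies below the CD34- maximum. The gate levels of Gins1 were 0.209 and 31.4 CPM, a log2 ratio of 4.75 (4.41 to 4.99), the largest of the 45 members over all cells. Without CD34- cells 25 and 36 Gins1 had 4.81, below Rrm2 at 6.70. Gins2 and Gins3 rested on few cells. Their log2 ratios of 3.29 and 2.27 were 2.68 without CD34+ cell 28 and 1.48 without CD34+ cell 34, which held 38.8% and 46.3% of the CD34+ reads. Gins3 had 3.77 without CD34- cell 40, which held 83.6% of its CD34- reads. Of the exon bases of Gins2, 67.3% overlap the gene Gse1 on the opposite strand, and the library kit (Nextera XT) does not mark strand, so its reads may be incomplete or shared. Gins4 stood at 26.7 and 56.2 CPM, with a log2 ratio of 1.05 (0.89 to 1.21). Cdc45 had the most reads in the group, at 42.4 and 92.0 CPM. The Cdc45 log2 ratio was 1.10 (0.97 to 1.23), and 1.76 without CD34- cell 24, which held 39.1% of its CD34- reads. In cells numbered 7 to 42 alone, Cdc45 and Mcm10 were short of 2-fold, at 0.51 and 0.84, where Mcm10 had 1.85 over all cells. Without CD34- cells 25 and 36, which held 71.4% of its CD34- reads, Mcm10 had 3.38.

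DNA polymerase alpha-primase, which lays down the RNA-DNA primers, differed as a whole. Its 4 genes had log2 ratios of 1.73 to 2.66, and their sum was 88.4 CPM in CD34- and 358 CPM in CD34+ cells. Pola1, the catalytic subunit, ranged from 0 to 524.4 CPM over CD34- cells with a median of 0 CPM, and from 0 to 1034 CPM over CD34+ cells with a median of 76.2 CPM. The gates overlap, but the CD34+ median lies far above the CD34- one. The gate levels of Pola1 were 52.0 and 174.4 CPM, a log2 ratio of 1.73 (1.62 to 1.83), the smallest of the group. Pola2, the regulatory subunit, stood at 10.9 and 74.3 CPM and had the largest over all cells, 2.66 (2.46 to 2.86). It had 4.02 without CD34- cell 28, which held 67.4% of its CD34- reads. Prim1, the primase that makes the RNA, had 1.99, and 3.34 without CD34- cell 36. Without CD34- cells 25 and 36, which held 75.8% of its CD34- reads, Prim1 had 3.78, above Pola2 at 2.78.

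The leading- and lagging-strand polymerases contained both large and small differences. POLE, with POLE2 and POLE3, synthesizes the leading strand, and POLD1, with POLD2 and POLD3, the lagging strand. All 3 polymerase epsilon genes were at least 2-fold higher in the CD34+ gate. Pole stood at 20.6 and 89.8 CPM (log2 ratio 2.07, 1.91 to 2.23), although 69.6% of its CD34- reads came from cells 25 and 36, without which the log2 ratio was 3.58. Pole2, at 2.84 and 27.7 CPM, had the largest log2 ratio of the complex, 2.90 (2.58 to 3.21), and Pole3, at 15.5 and 51.98 CPM, the smallest, 1.68 (1.49 to 1.87). Pole2 had 4.13 without CD34- cell 28 and Pole3 had 2.63 without CD34- cell 33, which held 77.9% and 52.3% of their CD34- reads. Without cells 25 and 36 Pole2 had 3.08, below Pole, so the order within the complex depends on single cells. In polymerase delta, Pold1 stood at 56.5 and 159.4 CPM, a log2 ratio of 1.48 (1.38 to 1.59), which was 2.09 without CD34- cell 32. Pold2, at 6.13 and 44.8 CPM, had a log2 ratio of 2.68 (2.43 to 2.93), and 4.25 without CD34- cells 25 and 36, which held 78.0% of its CD34- reads. Pold3, an accessory subunit, did not share this. Pold3 ranged from 0 to 524.9 CPM over CD34- cells and from 0 to 553.3 CPM over CD34+ cells, with medians of 0 and 26.4 CPM. More CD34+ cells had Pold3 reads, but the highest CD34- cell came close to the highest CD34+ cell. Its gate levels of 54.7 and 61.7 CPM gave a log2 ratio of 0.17 (0.04 to 0.30), which became -0.03 with edgeR's TMM scaling, -0.21 without CD34+ cell 25, which held 25.5% of its CD34+ reads, and -0.19 in cells numbered 7 to 42.

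The clamp and its loader were the group with the smallest difference in summed level, 627.9 CPM in CD34- and 684.1 CPM in CD34+ cells. This rests on Rfc2, which made up most of that sum. Pcna, the clamp itself, ranged from 0 to 212 CPM over CD34- cells with a median of 0 CPM, and from 0 to 419.2 CPM over CD34+ cells with a median of 48.8 CPM. At 13.8 and 83.4 CPM in the gates, it had a log2 ratio of 2.51 (2.33 to 2.69), the largest of the group over all cells, and 3.18 without CD34- cell 36. The processed copy Pcna-ps2 carried 425 and 2261 reads beside the 461 and 2504 of Pcna, so reads of the near-identical sequences may have been divided between them. Among the loader subunits, Rfc5 and Rfc3 had log2 ratios of 2.23 and 1.40 (3.37 without CD34- cell 7 and 2.07 without CD34- cell 43), and Rfc1 and Rfc4 had 0.90 and 0.85, short of 2-fold. Rfc4 reached 1.80 without CD34- cell 36 and 2.14 without CD34- cells 25 and 36, which held 65.0% of its CD34- reads.

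Rfc2 (ENSMUSG00000023104, chr5:134581366-134601805) was the exception of the list. It encodes a small subunit of the clamp loader that is also part of loaders for other clamps. Rfc2 had reads in all 46 cells of both gates, from 5.77 to 1287 CPM with a median of 463.5 CPM in CD34- cells and from 49.7 to 1012 CPM with a median of 338 CPM in CD34+ cells. The ranges overlap almost entirely, with the CD34- median the higher. Its gate levels were 521 and 390.2 CPM, a log2 ratio of -0.42 (-0.46 to -0.37), which became 0.55 with spike-in scaling. Lat2, an adaptor gene of the opposite strand, covers 15.1% of the exon bases of Rfc2 and was also lower in the CD34+ gate, at 565.3 and 258.3 CPM. Across 46 cells of 1 plate, with both genes divided by the same total of gene reads, the Spearman correlation of Rfc2 with Lat2 was -0.18 in CD34- and -0.0017 in CD34+ cells. Whether the overlap adds reads to Rfc2 was not tested.

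Replication protein A coats single-stranded DNA, and its 3 genes differed by similar amounts. Rpa1 had a log2 ratio of 1.81 (1.66 to 1.96), at 25.0 and 90.0 CPM. Rpa2, the most read of the 3, had 1.23 (1.10 to 1.36), at 38.7 and 92.1 CPM, and Rpa3 had 1.34. None reached 4-fold over all cells, but Rpa1 did without CD34- cell 14 (2.24) and without CD34- cells 25 and 36 (2.07).

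Okazaki fragment genes finish the lagging strand, where FEN1 trims flaps, RNase H2 removes RNA and DNA ligase 1 seals the nicks. Lig1 ranged from 0 to 294.4 CPM over CD34- cells with a median of 0 CPM, and from 0 to 949 CPM over CD34+ cells with a median of 61.4 CPM. Most CD34- cells had no Lig1 read, and the highest of them lay below the top of the CD34+ range. Over the gates Lig1 stood at 23.8 and 174.8 CPM, a log2 ratio of 2.83 (2.69 to 2.96). Rnaseh2a stood at 25.6 and 45.9 CPM, a log2 ratio of 0.82 (0.65 to 0.99), and 1.49 without CD34- cell 26. Fen1 had 20 and 79 reads only, and all 20 CD34- reads were in cells 25 and 36. Of the exon bases of Fen1, 78.8% lie opposite the gene model Gm10143, so its level is uncertain and whether the overlap removed reads was not tested.

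Ribonucleotide reductase makes the deoxynucleotides for synthesis, from a large subunit encoded by Rrm1 and a small one encoded by Rrm2. Rrm2 ranged from 0 to 519.9 CPM over CD34- cells and from 0 to 758 CPM over CD34+ cells, with a median of 0 CPM in both. In the CD34- gate 99.7% of its reads came from cells 25 and 36. Its gate levels were 19.8 and 109.2 CPM, a log2 ratio of 2.41 (2.25 to 2.56), and without those cells the CD34- level was 0.0627 CPM and the log2 ratio 6.70. Rrm1 stood at 42.1 and 122 CPM, a log2 ratio of 1.51 (1.39 to 1.63), and at 7.80 CPM in the CD34- gate, with a log2 ratio of 3.80, without the same cells. RRM2 is a protein made in S phase and degraded afterwards.

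Single cells showed how many of the genes were present together. To compare cells at equal depth, 200000 gene reads were drawn at random from each cell, and a gene with at least 1 read among them was counted as detected. CD34- cells had a median of 6.5 of the 45 members (3 to 35), and CD34+ cells 28 (7 to 43), a difference of medians of 21.5 genes. The gates overlapped between 7 and 35 members. Fewer than 10 members were detected in 35 of 46 CD34- cells and in 1 of 46 CD34+ cells, and 30 or more in 3 and in 19 cells. All genes together also differed, with medians of 4520.5 detected genes in CD34- and 6519 in CD34+ cells. Relative to that number, the members stood at a median of 1.55 per 1000 detected genes in CD34- and 3.95 in CD34+ cells. Requiring 10 reads, the medians were 4 and 17.5 members.

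**Figure D3:**
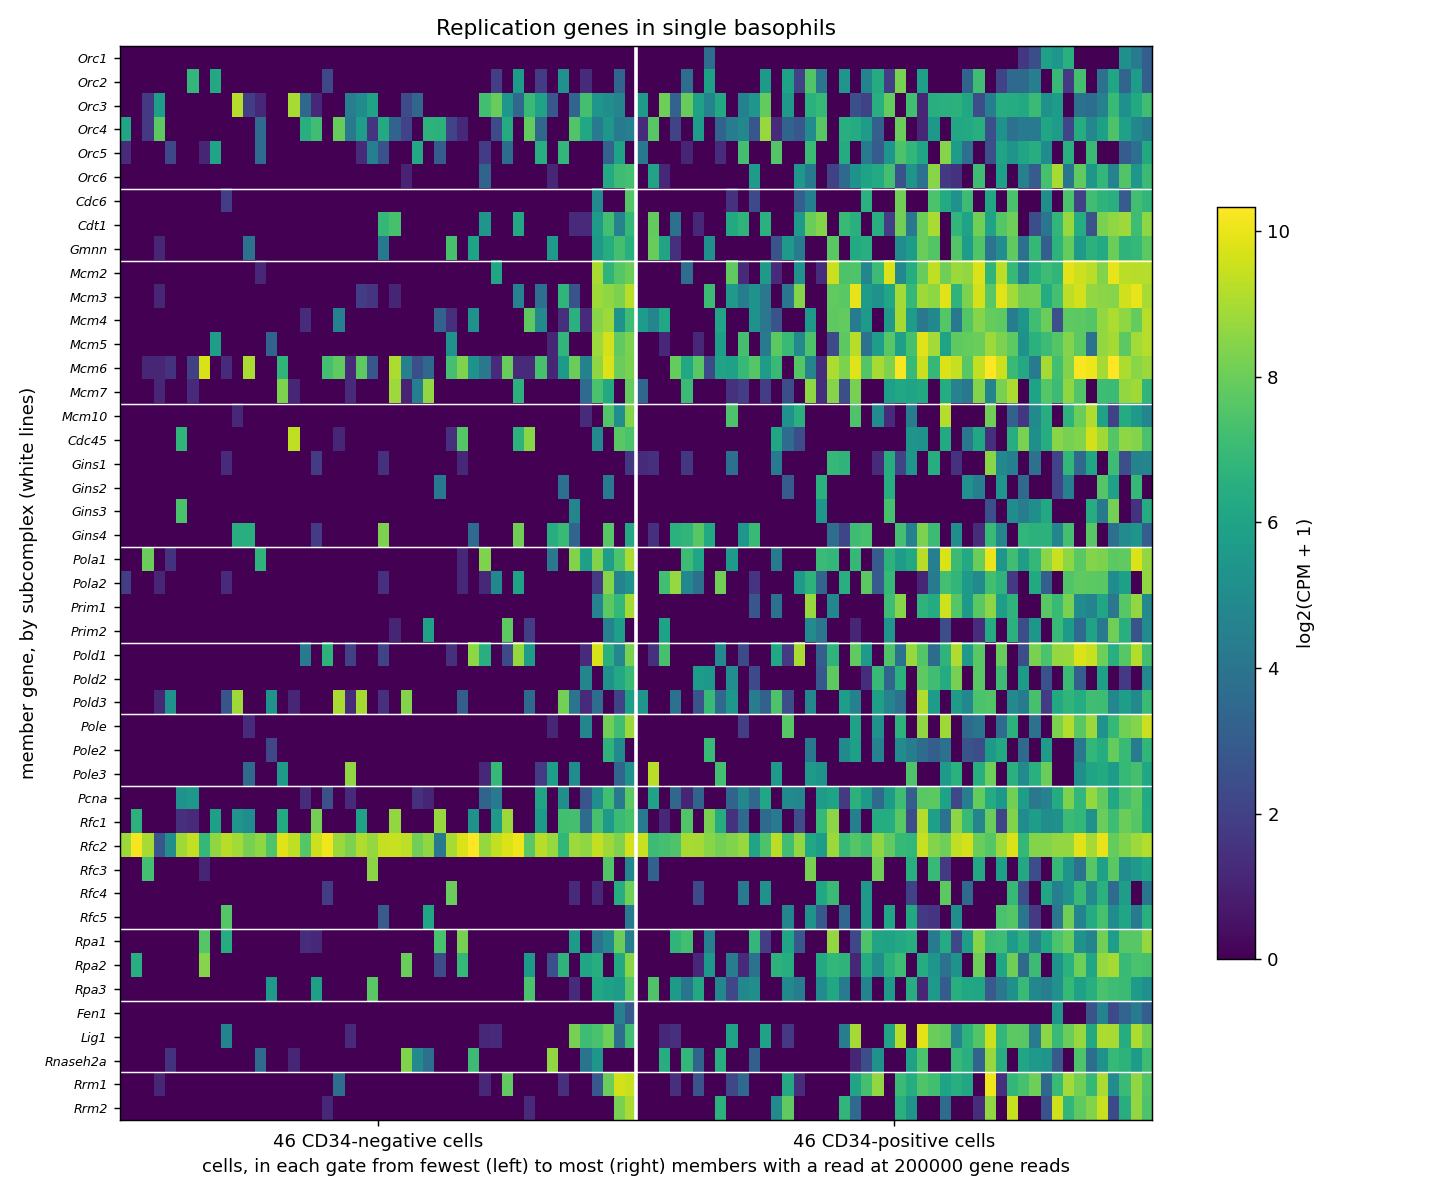
Log2 of CPM plus 1 for the 45 replication genes (rows, by subcomplex) in the 46 kept cells of each gate (columns, ordered by the number of members detected). The left gate (CD34-) is mostly dark apart from Rfc2 and its last 4 cells, and the right gate (CD34+) fills gradually from 7 to 43 members.

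Taken gene by gene, 44 of the 45 members were detected in more CD34+ than CD34- cells, against 80.9% of all 12460 genes. A lead of at least 10 cells was seen for 39 members and for 32.5% of all genes. Rfc2, found in every cell, was the member without a difference in detection. The widest gaps were in the helicase core. Mcm2 was detected in 5 CD34- and 35 CD34+ cells, Mcm3 in 7 and 36, and Mcm5 in 9 and 38. Orc4, by contrast, was detected in 25 and 34 cells. Orc1 and Fen1 were rare in both gates, at 0 and 7 and at 1 and 7 cells.

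**Figure D4:**
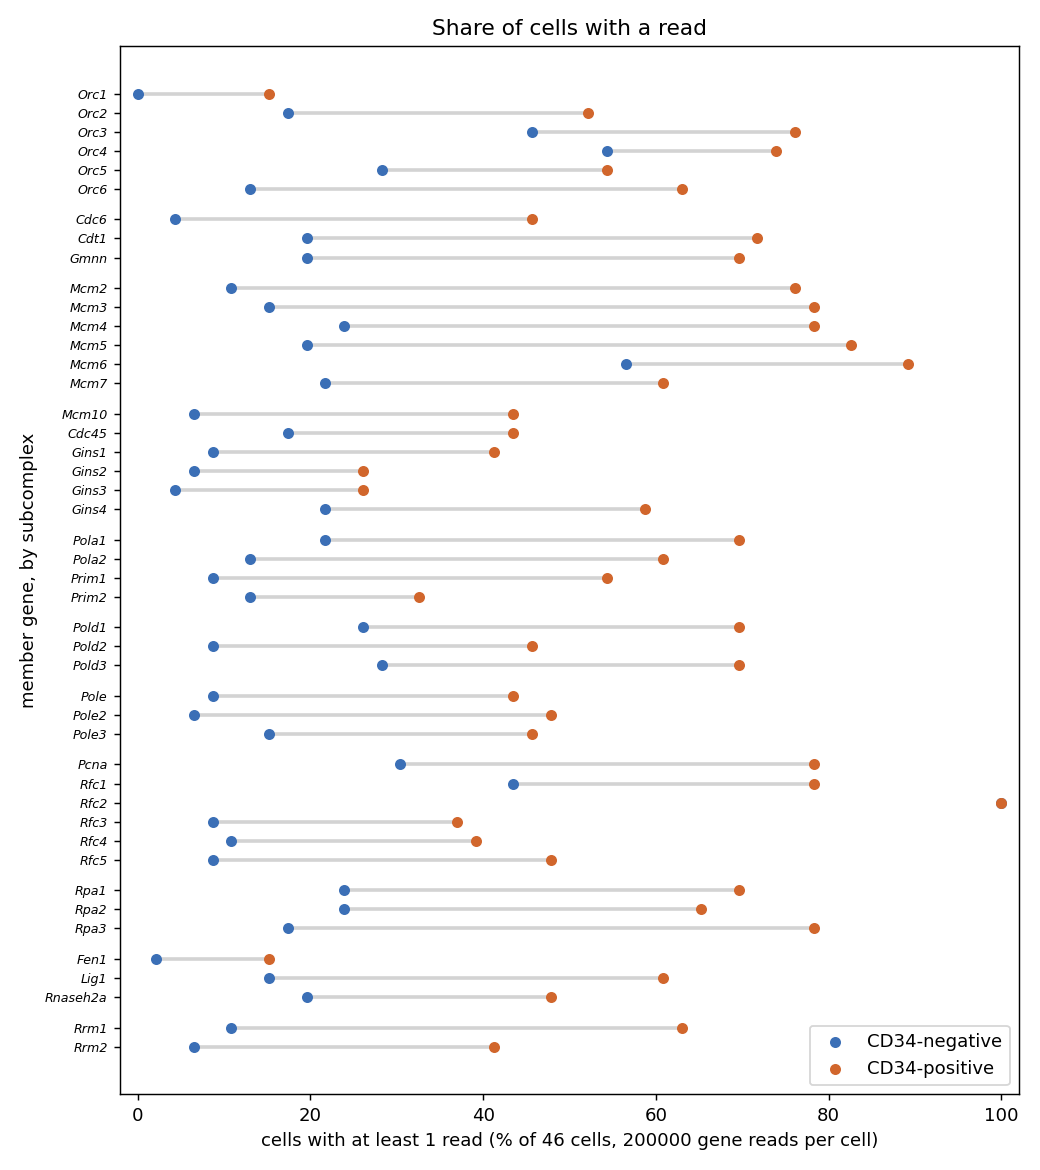
Share of the 46 cells of each gate with at least 1 read of each replication gene, at 200000 gene reads per cell. Blue points are CD34- cells and orange points CD34+ cells, and a grey line joins each pair. Orange lies to the right of blue for 44 genes, and for Rfc2 both are at the right edge.

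Complete sets of subunits in 1 cell were mainly seen in the CD34+ gate. All 6 genes of the MCM ring were detected in 25 of 46 CD34+ cells, or 54.3% (exact 95% interval 39.01% to 69.1%). The same was true of 3 of 46 CD34- cells, or 6.52% (1.37% to 17.9%). No MCM gene was detected in 13 CD34- cells and in 0 of the CD34+ cells, where the interval reaches 7.71%. The 3 RPA genes were found together in 3 CD34- and 21 CD34+ cells, and Rrm1 with Rrm2 in 2 and 16 cells. All 6 origin recognition genes were found together in 0 and 2 cells. These counts depend on transcript level, since low genes are missed more often at this depth.

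The proteins of Cdt1 and Gmnn are known to accumulate in different phases of the cell cycle, and their transcripts were counted cell by cell. Both were detected in 25 of 46 CD34+ cells, Cdt1 alone in 8, Gmnn alone in 7 and neither in 6. In the CD34- gate both were detected in 5 cells, Cdt1 alone in 4, Gmnn alone in 4 and neither in 33. Cdc6 was detected in 2 CD34- and 21 CD34+ cells.

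The CD34- gate was not uniform, and 4 of its cells stood apart. Cell 36 had 35 members, cell 25 had 34, cell 28 had 31 and cell 32 had 24, and the next cell had 16. Cells 25 and 36 together held 19.1% of the member reads of their gate. They also had 12 and 11 of a list of 12 genes called mitotic here, such as Mki67, Cdk1 and Ccnb1. Mki67, a general proliferation gene, was detected in 17 CD34- and 33 CD34+ cells, and each other gene of that list in at most 6 and 19. Cells 28 and 32 had 2 mitotic genes each. Counting all genes, the 4 cells had between 6050 and 7335 detected. Without cells 25 and 36, 40 members were at least 2-fold higher in the CD34+ gate and the member median was 2.27.

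Replication and mitotic genes were not always detected in the same CD34+ cells. Of the 19 CD34+ cells with 30 or more members, 6 had at most 2 mitotic genes, 7 had 3 to 5 and 6 had 6 or more. Another 3 CD34+ cells had 6 or more mitotic genes with fewer than 30 members. Across the 46 CD34+ cells, the number of members had a Pearson correlation of 0.34 and a Spearman correlation of 0.44 with the number of mitotic genes. In CD34- cells these were 0.76 and 0.36, and the Pearson value fell to 0.33 without the 2 cells farthest from the median. The cells of a gate were sorted into the same plate, per the labels' protocols, and these values are descriptions only. With the number of all detected genes, the members had a Spearman correlation of 0.68 in CD34- and 0.53 in CD34+ cells, and with gene reads per spike-in read 0.61 and 0.43.

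**Figure D5:**
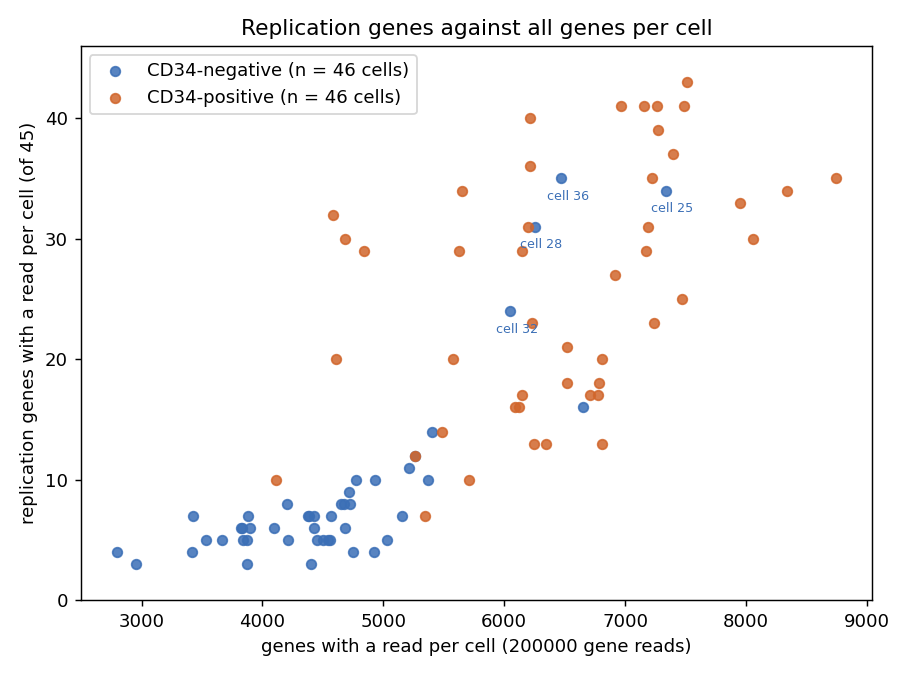
Members detected (of 45) against all genes detected per cell, at 200000 gene reads, for 46 CD34- (blue) and 46 CD34+ cells (orange). Of the CD34- cells, 35 lie below 10 members and the 4 labelled cells have 24 to 35, and the CD34+ cells spread from 7 to 43 members.

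Within the CD34+ gate the members differed in how far they followed one another. For each gene, its CPM was correlated over 46 cells with the summed CPM of the other 44 members. The Spearman correlation was highest for Pola1 (0.80), Mcm3 (0.78), Lig1 (0.77), Mcm2 (0.76) and Pcna (0.75). It was lowest for Orc3 (-0.10), Orc4 (0.15), Gins4 (0.16) and Orc5 (0.21), with Rfc2 at 0.28. The 15 pairs of MCM genes had a median correlation of 0.57 (0.43 to 0.76), and the 15 pairs of origin recognition genes 0.06 (-0.18 to 0.33). In the CD34- gate the corresponding medians were 0.39 for the MCM pairs and 0.06 for 10 origin recognition pairs, Orc1 being undetected. In sparse counts low genes can give low correlations. Orc3, Orc4, Gins4 and Orc5 had reads in 38, 39, 29 and 27 CD34+ cells, and Rfc2 in 46. Fen1 and Orc1, with reads in the fewest CD34+ cells (7 and 9), had correlations of 0.52 and 0.29. The part of transcript level in this order was not tested.

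Other genes of the pathway were set beside the members. Of 37 further replication genes (origin firing factors, fork protection, chromatin assembly and nucleotide synthesis), 27 were at least 2-fold higher in the CD34+ gate and 1 was at least 2-fold lower, beside 21.7% and 10.1% of all genes tested. Their median log2 ratio was 1.98, and that of all genes 0.19. The 3 with most reads were Top2a at 133 and 463 CPM (log2 ratio 1.80, and 3.90 without CD34- cells 25 and 36, which held 78.4% of its CD34- reads), Dnmt1 at 85.5 and 353.9 CPM (2.04) and Mcmbp at 259.1 and 215.7 CPM (-0.26). Top2a untangles copied DNA, DNMT1 copies DNA methylation at the fork, and MCMBP binds MCM proteins. Dbf4, the activator of the kinase that fires origins, had the largest log2 ratio over all cells, 4.36, and 5.22 without CD34- cell 25. The log2 ratio was below 0 for 4 of the 37 genes: Mcmbp, Mcm9 (-0.69), Pold4 (-0.60) and Rrm2b. The gene past 2-fold was Rrm2b, at 39.3 and 12.3 CPM (-1.60), which encodes the small reductase subunit used outside S phase. Rrm2b and Rrm2 thus lay on opposite sides of 0. Across cells, the number of members detected had a Spearman correlation of 0.57 with the number of these genes in CD34- and 0.91 in CD34+ cells.

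The E2F family and its regulators were mixed. Of 14 genes, 6 were at least 2-fold higher in the CD34+ gate, none was at least 2-fold lower, and the median log2 ratio was 0.82. Over all genes tested, 21.7% were higher and 10.1% lower by that measure, so with 14 genes little can be read from the absence of lower ones. E2f1, an activator, stood at 14.3 and 81.6 CPM (2.43), E2f3 had 3.09 and E2f2 -0.64. Without CD34- cell 46 E2f1 had 3.58, and without CD34- cell 36 E2f3 had 4.49. The repressor gene E2f8 had the most reads, at 226.5 and 405.2 CPM (0.84). Rb1 and Rbl2, whose proteins hold E2F factors inactive, were at 136.2 and 85.7 CPM (-0.66) and at 191.8 and 140.7 CPM (-0.44), while their relative Rbl1 had 2.41. The small negative ratios here and in the previous list are relative to gene reads, and spike-in scaling moves the median of all genes from 0.19 to 1.04.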

How the data were processed

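Polyadenylated RNA of 94 single cells was amplified with a Smart-seq2-type protocol (19 cycles, ERCC spike-in, 50 bp single-end reads, Nextera XT libraries), as the labels' protocols state. The authors deposited 1 table of read counts, not normalized, with a column per cell. GSNAP, HTSeq 0.5.3p3 and build mm10 are named in the submitters' processing notes, and the strand setting is not given in the sources used here. The table holds 46078 gene identifiers, 45143 of which matched a symbol, 92 ERCC sequences and 5 summary categories. Of all reads, 32.4% were assigned to genes, 7.68% were ambiguous between genes, 33.0% met no gene and 22.9% were not aligned. Only gene reads entered the totals.

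Kept cells had 50000 or more gene reads, 1000 or more genes, under 20% mitochondrial reads and under 50% ERCC reads, which left 46 per gate. No 2 columns were identical. Counts were summed per gate, scaled to CPM and compared as log2 ratios with a pseudocount of 1 CPM. A gate is 1 sample, so there is no test. Intervals are exact Poisson over reads (sums, combined end against end for ratios) or Clopper-Pearson over cells (shares), all at 95%. Reads carry no molecular identifiers, and intervals cover counting error only, of reads or of cells. Positions, exon lengths and exon overlaps come from GENCODE M21. Calculations were checked on simulated data.

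The members, subcomplexes and other lists were chosen with earlier results of these data known. In each subcomplex the member with most reads and those with the largest and smallest log2 ratio were described, with members whose sign changed under an alternative. Further members and cells were picked after their values were seen. Software was edgeR 4.0.16 (for TMM) and scran 1.30.0 (size factors) in R 4.3.3, and, in Python 3.11.15, pandas 2.3.3, scipy 1.17.1, numpy 2.4.6 and matplotlib 3.10.9.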

Additional observations from a re-analysis of the deposited data

Results flagged for a closer look

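Cell 3 of the CD34+ gate stood outside the comparisons because of its 31504 gene reads, and it carried reads of many replication genes. Drawn to 24000 gene reads, it had 38 of the 45 members, whereas the kept CD34+ cells had 2 to 37 at that depth, with a median of 20. Its member reads numbered 323. Cell 20 of the CD34- gate, left out for the same reason, had 2 members at 24000 gene reads, and the kept CD34- cells had 1 to 30, with a median of 4. Cell 20 had 3 member reads in all. The cause of either value was not tested.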

How the results depend on the processing

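The count of 38 members at least 2-fold higher lay between 34 (pseudocount of 10 CPM) and 44 (spike-in scaling) over the alternatives run, and no member was 2-fold lower in any of them. The median log2 ratio of 1.99 (medians of the members' interval ends, 1.86 and 2.15) was 1.79 with TMM factors, 1.80 with scran size factors, 2.94 with spike-in scaling, 1.39 with a pseudocount of 10 CPM, 1.83 without each gene's top cell by reads, 2.27 without CD34- cells 25 and 36, and 1.61 in cells numbered 7 to 42. Over the same settings the median of all genes was 0.02 with TMM factors, -0.01 with scran size factors, 1.04 with the spike-in, 0.09 with a pseudocount of 10 CPM, 0.35 without top cells, 0.20 without CD34- cells 25 and 36, and 0.19 in cells numbered 7 to 42. The member median less that of all genes was 1.80 as reported and, in that order, 1.77, 1.82, 1.90, 1.30, 1.47, 2.06 and 1.42. The share of all genes at least 2-fold higher was 21.7% as reported and 17.7%, 17.3%, 51.8%, 11.2%, 25.8%, 23.5% and 22.1%. The difference of 21.5 detected members per cell was 13.5 when 10 reads were required and 16 with all 94 cells at 24000 gene reads, an alternative chosen after seeing the data.

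Leaving out each cell in turn gave 36 to 39 members at least 2-fold higher, a median log2 ratio of 1.84 (without CD34+ cell 34) to 2.21 (without CD34- cell 28) and a detection difference of 20.5 to 22.5. Leaving out each cell in turn was also applied to single members after seeing the data, where 21 moved up and 3 moved down by over 1.5-fold and Pold3 alone changed sign (-0.21 to 0.53). Of 540 other log2 ratios of single members under the alternatives, 294 lay inside the counting interval, 242 lay outside it on the same side of 0, and 4 lay on the other side. Those were Pold3 with TMM factors (-0.035), without its top cell (-0.21) and in cells numbered 7 to 42 (-0.19), and Rfc2 with the spike-in (0.55). Apart from the changed sets of cells and scalings themselves, the cause was not tested. No paired analysis was possible because a cell's title number links it to no cell of the other gate and no test was run. Depth limits members with few reads, such as Orc1, Gins1 and Fen1 with 0, 7 and 20 reads in the CD34- gate.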
